A study of Mus musculus with 9 samples.

Results

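The genes described here encode 8 enzymes of the tricarboxylic acid (TCA) cycle outside complex II, namely Cs, Idh2, Idh3a, Ogdh, Suclg1, Sucla2, Fh1 and Mdh2, together with Acod1, which encodes itaconate synthase. They were taken by gene symbol, from a list drawn up with earlier results of these data known. They are 9 of the 56691 genes in the deposited table. RNA was sequenced from RAW264.7, a mouse macrophage cell line that can form osteoclasts, in 9 libraries from 3 groups of 3. The groups were unstimulated cells (control, labelled Ctrl), cells given RANKL, the cytokine that drives osteoclast formation (RANKL), and cells given RANKL together with uridine, abbreviated UD (RANKL + UD, labelled UDRANKL). All cells were collected after 3 days of culture. The labels give no uridine dose for these libraries, and the established cell line stood in for primary osteoclast precursors. The sources used here call the libraries biological replicates without saying how the cultures were separated, so the p-values measure the spread between these libraries.

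The TCA cycle runs in the mitochondrial matrix. Citrate synthase (Cs) joins acetyl-CoA to oxaloacetate, citrate becomes isocitrate, and the NAD-dependent isocitrate dehydrogenase (its catalytic subunit is Idh3a) or its NADP-dependent counterpart (Idh2) oxidises it to 2-oxoglutarate. The 2-oxoglutarate dehydrogenase complex (Ogdh is its E1 subunit) makes succinyl-CoA, succinyl-CoA ligase (the shared subunit Suclg1 with Sucla2 or Suclg2) makes succinate, and fumarase (Fh1) and malate dehydrogenase (Mdh2) follow complex II. Acod1 diverts cis-aconitate, an intermediate between citrate and isocitrate, into itaconate, a metabolite known from macrophages exposed to endotoxin that inhibits succinate dehydrogenase.

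The promoters of Acod1, Ogdh and Cs are shown because Acod1 and Ogdh had the largest changes of the 9 genes when uridine was added and Cs is the entry enzyme of the cycle. The letters come from the RefSeq table for GRCm38.p6, in which 8 of the 9 genes had an entry; Idh3a had none. Each window runs from 250 bases before to 50 bases after an annotated start, on the plus strand for these 3 genes, and the stretch printed ends at or before the start. Capitals mark CCAAT, read on either strand (ATTGG on the other), a motif of many housekeeping promoters.
Acod1, chr14:103046762-103046976: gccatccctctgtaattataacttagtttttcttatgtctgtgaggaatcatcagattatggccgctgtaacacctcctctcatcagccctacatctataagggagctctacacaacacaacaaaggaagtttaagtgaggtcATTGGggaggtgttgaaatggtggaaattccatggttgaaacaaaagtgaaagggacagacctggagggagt
Ogdh, chr11:6291347-6291596: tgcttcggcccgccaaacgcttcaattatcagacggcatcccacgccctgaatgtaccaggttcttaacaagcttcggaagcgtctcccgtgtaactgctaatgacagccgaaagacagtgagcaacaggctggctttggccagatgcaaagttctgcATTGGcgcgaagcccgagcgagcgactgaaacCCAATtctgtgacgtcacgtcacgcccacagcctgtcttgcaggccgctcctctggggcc
Cs, chr10:128337477-128337726: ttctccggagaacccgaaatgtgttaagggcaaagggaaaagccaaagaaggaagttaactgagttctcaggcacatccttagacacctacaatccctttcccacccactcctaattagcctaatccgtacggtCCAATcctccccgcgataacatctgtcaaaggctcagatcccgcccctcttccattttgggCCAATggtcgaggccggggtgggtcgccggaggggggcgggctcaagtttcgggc

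CCAAT was found in a window of 5 of the 8 genes (Acod1, Cs, Fh1, Idh2 and Ogdh), where 37.4% of the 32851 promoter windows in the table hold it. TATAAA was found for Acod1 alone among the 8, 28 bases before its start and outside the stretch printed; 13.6% of all windows hold it. Of the 8 genes, Ogdh alone had CACGTG (an E-box, held by 7.15% of windows) and GCATGCG (the core of the NRF1 motif, 3.58%), both in windows of its other annotated starts. CCGGAAG (ETS factors, 8.86%), AAGATGG (YY1, 6.34%) and TGANTCA (AP-1, 7.81%) were in none of the 8 genes' windows. Nor were the single strict patterns searched for the NF-kB motif (0.411%) and the interferon response element (3.44%). Looser forms of the NF-kB motif and the interferon response element were not searched, so their absence from these windows was not tested. A gene was counted if any of its windows matched, while the shares are per window. Ogdh has more windows than the other genes, and so more room for a match. All motifs were searched on both strands, and a match describes letters in a window, not binding.

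Total counts were 15951800 to 19746862 per library. The mitochondrial genome took 3.67 to 4.03% of counts in control, 4.46 to 4.71% in RANKL and 4.49 to 4.70% in RANKL + UD libraries. The summed FPKM (fragments per kilobase of exon and per unit of library total) of 6 macrophage markers was 1554 to 1683 in control, 1169 to 1250 in RANKL and 957.9 to 1029 in RANKL + UD libraries. The markers did not all move together: in each of the comparisons of RANKL with control and of RANKL + UD with RANKL, 5 were lower and 1 was higher, which was Cd68 after RANKL (log2 fold change 0.60) and Adgre1 with uridine (0.22), both named after their values were seen. The summed FPKM of 8 osteoclast markers was 46.7 to 49.9, 2639 to 2843 and 1665 to 1702 in the same order. All 7 tested markers were higher in RANKL than in control and lower in RANKL + UD than in RANKL. Acp5, Mmp9 and Oscar entered the test only through the libraries with RANKL, where they are high, so their calls after RANKL carry no weight. Calcr, a defining marker of mature osteoclasts, was too low to be tested. Over all genes tested, 27.3% were called higher and 30.2% lower after RANKL, and 18.6% and 20.2% with uridine. Markers of T cells, B cells, fibroblasts, osteoblasts and epithelial cells summed to 0.19 to 0.82. The level of macrophage and osteoclast transcripts moved with the groups. The mitochondrially encoded share was higher in both other groups than in control, and overlapped between RANKL and RANKL + UD. The part of these levels in the results below was not tested. In such bulk RNA fewer cells of a type and less RNA per cell cannot be told apart.

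By mean FPKM, Cs was the highest of the 9 genes in each group, at 66.3 ± 4.72 in control, 82.0 ± 2.24 in RANKL and 94.5 ± 3.06 in RANKL + UD (SD, n = 3). In control libraries the order was Cs, Idh2, Mdh2, Fh1, Idh3a, Ogdh, Sucla2, Acod1 and Suclg1, with no overlap between the libraries of neighbours. In RANKL libraries Mdh2 stood beside Cs and Idh3a beside Idh2, each pair with overlapping libraries, and Acod1 came last. In RANKL + UD libraries Idh3a stood above Idh2 without overlap, Fh1 and Ogdh overlapped, and Acod1 was again last. The 8 TCA cycle genes summed to 295 to 324 FPKM in control, 351 to 377 in RANKL and 410 to 424 in RANKL + UD, and the ranges did not overlap. FPKM as deposited is scaled by total counts alone, and on that scale the RANKL libraries sit lower relative to the others than after TMM scaling (trimmed mean of M-values), whose factors were 0.959 to 0.962 for RANKL and 1.01 to 1.03 for the other libraries.

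**Figure D1:**
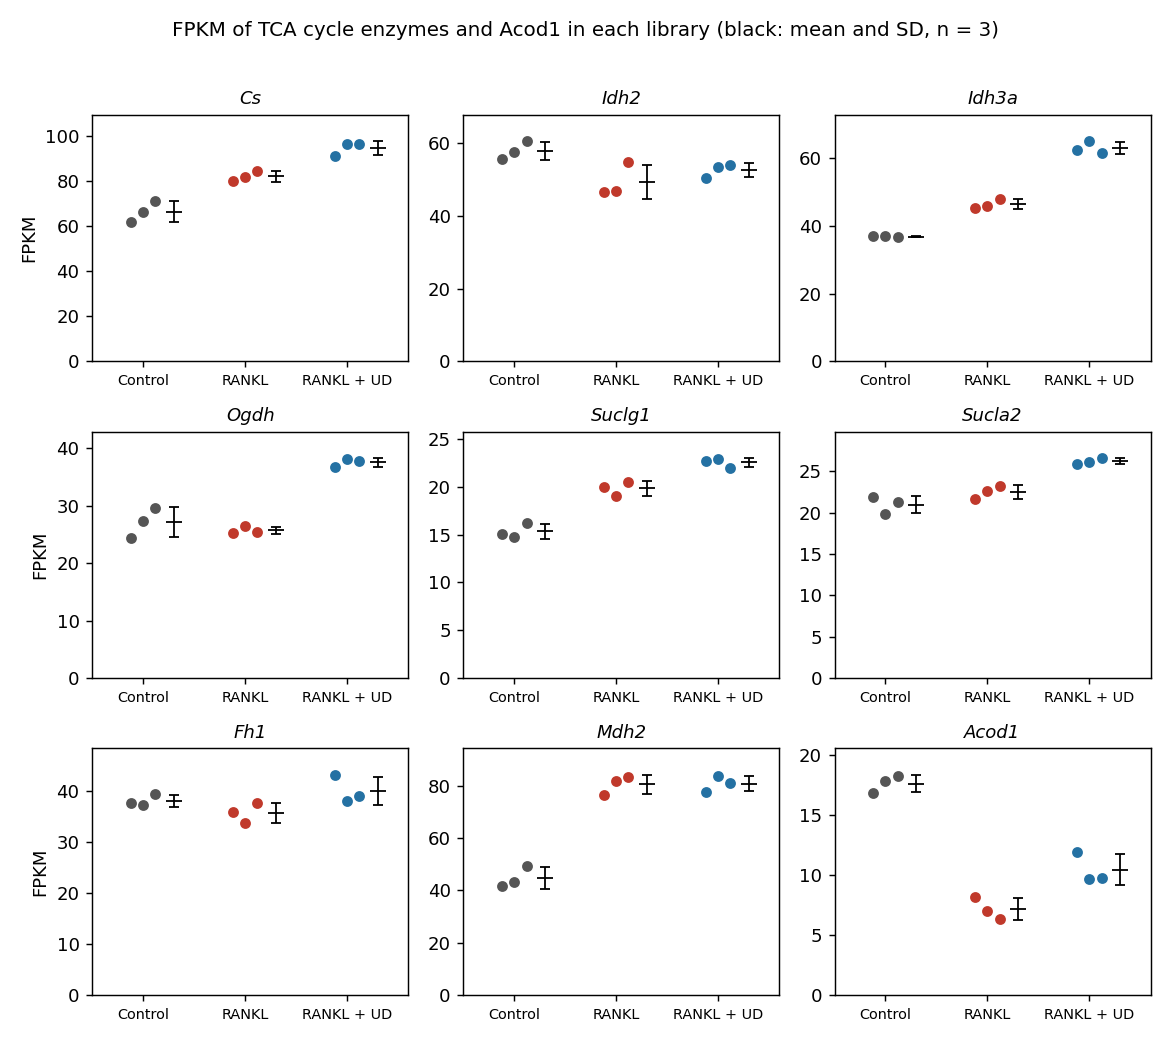
FPKM (y axis, from 0, a separate scale per gene) of each of the 9 genes in the 3 control, 3 RANKL and 3 RANKL + UD libraries (points), with the mean and SD in black. Acod1 lies at 16.8 to 18.2 in control, 6.32 to 8.13 in RANKL and 9.65 to 11.9 in RANKL + UD libraries, while Mdh2 rises from 41.7 to 49.4 in control to 76.3 to 83.3 in RANKL.

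The first comparison asked how the genes differed after RANKL. Cs, Idh3a, Suclg1, Sucla2 and Mdh2 were higher in RANKL than in control, Idh2 and Acod1 were lower, and Ogdh and Fh1 did not pass the test. Differences were tested with edgeR's quasi-likelihood test on TMM-scaled counts of 11995 genes, with Benjamini-Hochberg adjustment and a call at an adjusted p under 0.05. Thus 5 of 9 genes were called higher, where 27.3% of all genes tested were, and 2 were called lower, where 30.2% were. The median log2 fold change of the 8 TCA cycle genes was 0.29, beside -0.03 over all genes tested.

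Acod1 (ENSMUSG00000022126, chr14:103284413-103294009 in the table's coordinates) had the largest change of the 9 genes. Its FPKM was 16.77, 17.80 and 18.19 in the control libraries and 8.13, 6.96 and 6.32 in the RANKL libraries. Every RANKL library lay far below every control library. The log2 fold change was -1.21 ± 0.10 (SE; edgeR, adjusted p = 1.35e-09), which is 2.32-fold lower, and it rested on 741 to 922 counts in control and 318 to 420 in RANKL libraries.

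Mdh2 (ENSMUSG00000019179, chr5:135807334-135819252), the enzyme that regenerates oxaloacetate, had the largest rise. Its FPKM was 41.73, 43.09 and 49.35 in control and 76.25, 81.75 and 83.32 in RANKL libraries. The groups did not overlap, and the log2 fold change was 0.93 ± 0.06 (edgeR, adjusted p = 1.07e-11). Suclg1 (ENSMUSG00000052738, chr6:73225365-73253894), the subunit common to both succinyl-CoA ligases, was at 15.03, 14.80 and 16.23 in control and at 19.95, 19.00 and 20.55 FPKM in RANKL. Its libraries did not overlap either, with a log2 fold change of 0.46 ± 0.06 (adjusted p = 5.27e-07).

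Idh3a (ENSMUSG00000032279, chr9:54493618-54511945) was at 36.88, 36.85 and 36.73 FPKM in control and 45.27, 45.90 and 48.01 in RANKL libraries. The SD of the control libraries was 0.0794 FPKM, and the log2 fold change was 0.42 ± 0.05 (edgeR, adjusted p = 8.64e-08). Cs (ENSMUSG00000005683, chr10:128173603-128198348) was at 61.61, 66.27 and 71.05 in control and 79.96, 81.61 and 84.40 in RANKL libraries, again without overlap. Its log2 fold change was 0.39 ± 0.05 (adjusted p = 1.08e-06).

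The other called changes were smaller. Sucla2 (ENSMUSG00000022110, chr14:73762759-73833582), the subunit of the ADP-forming ligase, was at 21.84, 19.85 and 21.24 FPKM in control and 21.61, 22.65 and 23.20 in RANKL libraries. These overlapped as FPKM but not as TMM-scaled CPM (counts brought to a common library total), and the log2 fold change was 0.19 ± 0.06 (edgeR, adjusted p = 0.00616). That call was lost in 5 of 20 alternatives. The log2 fold change of Sucla2 was 0.10 with counts scaled by total alone (edgeR, adjusted p = 0.125), 0.096, 0.10 and 0.065 with limma on log2(FPKM + 1), log2(FPKM + 0.1) and log2(TPM + 1) (adjusted p = 0.136, 0.135 and 0.317) and 0.15 without control replicate 2 (edgeR, adjusted p = 0.0507). Idh2 (ENSMUSG00000030541, chr7:79744594-79765140) was at 55.65, 57.43 and 60.44 in control and 46.43, 46.82 and 54.65 in RANKL libraries. RANKL replicate 3 lay close to the control libraries. The log2 fold change of Idh2 was -0.14 ± 0.06 (adjusted p = 0.0475). That call was lost in 12 of 20 alternatives, with adjusted p up to 0.20 and with every single library left out except control replicate 1 and RANKL replicate 3.

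For Ogdh (ENSMUSG00000020456, chr11:6241633-6306642) the control libraries, at 24.47, 27.34 and 29.61 FPKM, overlapped the RANKL libraries, at 25.32, 26.48 and 25.40. Its log2 fold change of 0.01 had a 95% interval of -0.11 to 0.13 (edgeR, adjusted p = 0.885). For Fh1 (ENSMUSG00000026526, chr1:175427940-175453201) the values were 37.70, 37.22 and 39.38 in control and 35.91, 33.74 and 37.67 in RANKL libraries, and the interval was -0.13 to 0.12 (adjusted p = 0.968). The sign of both differences varied with the scaling of the libraries.

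**Figure D2:**
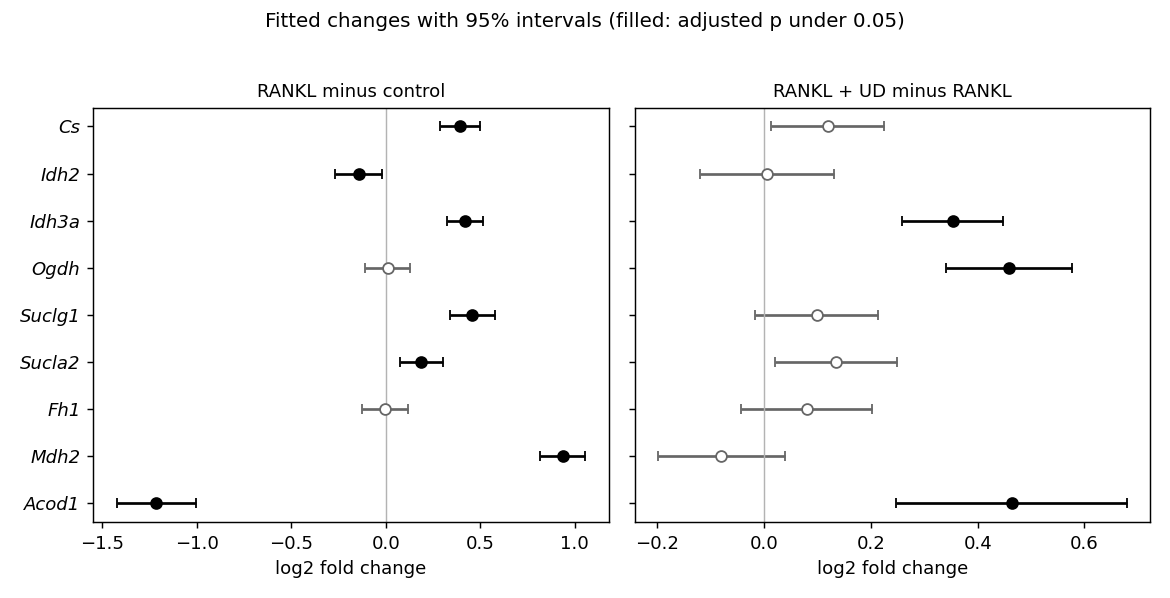
Log2 fold change (x axis; horizontal bars are 95% intervals from edgeR) of the 9 genes for RANKL minus control (left) and RANKL + UD minus RANKL (right, with another x scale); filled points have an adjusted p under 0.05. Left, Mdh2 at 0.93 and Acod1 at -1.21 are the extremes, and right, Ogdh, Acod1 and Idh3a at 0.46, 0.46 and 0.35 are the 3 filled points.

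The second comparison asked how uridine changed the genes in cells given RANKL. With uridine, Acod1, Ogdh and Idh3a passed the test as higher, and none of the 9 genes passed as lower. Thus 3 of 9 genes were called higher by edgeR, where 18.6% of all genes tested were, and 0 were called lower, where 20.2% were. Of the 9, 5 had an unadjusted p under 0.05, and DESeq2, limma on log2(FPKM + 1) and edgeR on counts scaled by total alone also called 0 lower. The comparison shares its RANKL libraries with the first. The median log2 fold change of the 8 TCA cycle genes was 0.11, beside 0.00 over all genes tested.

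Ogdh was at 36.69, 38.16 and 37.79 FPKM in RANKL + UD libraries, above all RANKL libraries and all control libraries. Its log2 fold change against RANKL was 0.46 ± 0.06 (edgeR, adjusted p = 1.78e-06), with a 95% interval of 0.34 to 0.58. Against control it was 0.47 ± 0.06 (adjusted p = 4.59e-07). Ogdh was thus called in both comparisons with uridine and in neither direction after RANKL alone.

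Idh3a was at 62.33, 64.94 and 61.45 FPKM in RANKL + UD libraries, all above the RANKL libraries. Its log2 fold change against RANKL was 0.35 ± 0.05 (edgeR, adjusted p = 2.79e-06), and against control it was 0.77 ± 0.05 (adjusted p = 5.50e-12). For Acod1 the RANKL + UD libraries were at 11.89, 9.65 and 9.73 FPKM, between the other groups and without overlap with either. Its log2 fold change was 0.46 ± 0.10 against RANKL (adjusted p = 0.00128) and -0.75 ± 0.10 against control (adjusted p = 1.43e-06). Each of these 3 genes kept its call against RANKL in all 20 alternatives.

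Mdh2 was at 77.73, 83.58 and 81.07 FPKM with uridine, which overlapped the RANKL libraries, and the 95% interval of its log2 difference was -0.20 to 0.04 (edgeR, adjusted p = 0.289). For Idh2 the libraries with uridine were at 50.48, 53.37 and 53.78, and the interval was -0.12 to 0.13 (adjusted p = 0.956). The sign of these 2 differences also varied with the alternatives. Fh1 was at 43.21, 38.01 and 39.07, with an interval of -0.04 to 0.20 (adjusted p = 0.308).

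Cs, Sucla2 and Suclg1 did not pass. With uridine, Cs was at 91.01, 96.45 and 96.16 FPKM, Sucla2 at 25.88, 26.15 and 26.60 and Suclg1 at 22.72, 22.89 and 22.01, each above all 3 RANKL libraries. On the FPKM scale, 34.1% of all genes tested had every RANKL + UD library above every RANKL library. The log2 fold changes were 0.12 ± 0.05 for Cs (edgeR, adjusted p = 0.0700), 0.13 ± 0.05 for Sucla2 (adjusted p = 0.0565) and 0.10 ± 0.06 for Suclg1 (adjusted p = 0.172). With counts scaled by total alone, they were 0.21, 0.22 and 0.18, and all 3 passed, as did Fh1 at 0.17. Under that scaling 7 of the 9 genes were called higher, but so were 3350 genes against 1707 lower over all genes tested, where TMM scaling gave 2233 higher and 2418 lower. Cs and Sucla2 also passed without control replicate 3 (adjusted p = 0.0242 and 0.0431) or without RANKL replicate 3 (0.0443 and 0.0386), which made 5 called genes.

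Between RANKL + UD and control, 6 of the 9 genes were called higher (26.7% of all genes tested were) and Acod1 was called lower (27.3% were). Beside Ogdh and Idh3a, these were Mdh2 with a log2 fold change of 0.85, Suclg1 with 0.56, Cs with 0.51 and Sucla2 with 0.32. Idh2, at -0.14 (edgeR, adjusted p = 0.0595), and Fh1, at 0.08 (adjusted p = 0.288), did not pass. Idh2 did pass without RANKL replicate 3 (adjusted p = 0.0155).

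With uridine none of the partners of these enzymes was called, and neither were 6 of the 8 TCA cycle genes. Of 6 other matrix subunits, 5 were higher in RANKL than in control, among them Dld, the shared E3 subunit, with a log2 fold change of 0.61 ± 0.05 (edgeR, adjusted p = 2.30e-10), and Suclg2, of the GDP-forming ligase, with 0.57. Dld was at 67.50 to 70.65 FPKM in control and 95.68 to 100.74 in RANKL libraries. Between RANKL + UD and RANKL, edgeR called 0 of the 6, where 18.6% of all genes tested were called higher and 20.2% lower. Of the 6, 0 had an unadjusted p under 0.05 or were called by DESeq2, limma or edgeR on total-scaled counts. Dlst, the E2 subunit that works with Ogdh, was at 21.04 to 22.26 FPKM in RANKL and 21.99 to 22.47 in RANKL + UD libraries, with a 95% interval of its log2 difference of -0.14 to 0.05. For Idh3b, a partner of Idh3a, the interval was -0.07 to 0.17.

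Ratios within a library do not depend on its scaling. Idh3a to Idh3b was 1.15 ± 0.00947 in control, 1.09 ± 0.0556 in RANKL and 1.35 ± 0.0646 in RANKL + UD libraries (SD, n = 3). The libraries with uridine were above all others, at an exact two-sided permutation p of 0.1, the smallest that 3 against 3 libraries allow. Sucla2 to Suclg2, the ADP-forming against the GDP-forming ligase, was 1.06 ± 0.0245 in control, 0.813 ± 0.0542 in RANKL and 0.864 ± 0.0404 in RANKL + UD. The control libraries were above both others (exact permutation p = 0.1 each), which overlapped (p = 0.3).
Idh2 to Idh1, the mitochondrial against the cytosolic NADP-dependent enzyme, was 0.451 ± 0.0120 in control, 0.704 ± 0.0673 in RANKL and 0.751 ± 0.0114 in RANKL + UD. Idh1 itself fell by 0.79 on the log2 scale after RANKL (edgeR, adjusted p = 2.49e-12). Mdh2 to Mdh1, its cytosolic counterpart, was 0.448 ± 0.0442, 0.581 ± 0.0373 and 0.545 ± 0.0312 in the same order. In both ratios the control libraries were below the others (exact permutation p = 0.1), which overlapped (p = 0.4). These were 12 comparisons, and none can pass an adjustment at this size.

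**Figure D3:**
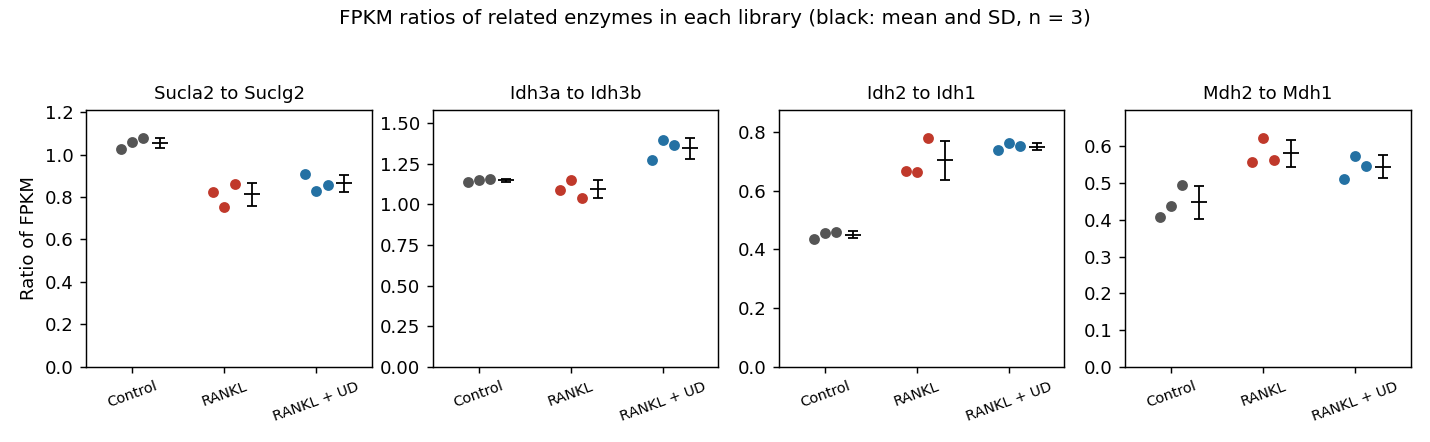
Ratio of the FPKM of 2 genes in the same library (y axis, from 0), for 4 pairs and the 3 libraries of each group, with the mean and SD in black. Idh3a to Idh3b is at 1.27 to 1.40 in RANKL + UD libraries and at 1.16 or lower in all others.

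Complex II and most genes of pyruvate entry were higher after RANKL, where 27.3% of all genes tested were called higher and 30.2% lower. All 4 complex II subunits were called higher, led by Sdha with a log2 fold change of 0.71, and Sdhd alone was higher again with uridine (0.23; edgeR, adjusted p = 0.00319). Of 10 genes of pyruvate entry, 7 were higher, 1 (Pdp1, a pyruvate dehydrogenase phosphatase) was lower and 2 did not pass after RANKL, with Pdhb and Pdha1 of the pyruvate dehydrogenase complex at 0.82 and 0.58. All 3 pyruvate dehydrogenase kinases tested, which switch that complex off, were higher as well (Pdk1 1.01, Pdk3 0.99, Pdk2 0.80); Pdk4 was too low to be tested. With uridine, Pdk2 and Pdk1 were lower than in RANKL by log2 fold changes of -0.68 and -0.38.
Pyruvate carboxylase (Pcx), which makes oxaloacetate, was at 1.82 to 1.90 FPKM in RANKL libraries and 0.80 to 1.17 in RANKL + UD libraries. Its log2 fold change was -1.07 ± 0.18 (edgeR, adjusted p = 9.18e-05), on 62 to 173 counts. Of the 10 genes of pyruvate entry, 3 were higher and 3 lower with uridine, where 18.6% and 20.2% of all genes tested were.

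Genes that feed or drain the cycle moved in both directions, as did all genes tested. Among all genes tested, 27.3% were called higher and 30.2% lower after RANKL, and 18.6% and 20.2% with uridine. Of 8 tested genes of glutamate and malate use, 4 were higher after RANKL and none lower, and with uridine 2 were higher and 3 lower. Alanine aminotransferase Gpt2 was at 7.71 to 8.44 FPKM in control, 15.24 to 15.68 in RANKL and 7.34 to 7.73 in RANKL + UD, a log2 fold change with uridine of -1.13 ± 0.06 (edgeR, adjusted p = 1.54e-11). Pck2, mitochondrial phosphoenolpyruvate carboxykinase, changed by -1.29 and Me1, cytosolic malic enzyme, by 0.80. Of 10 cytosolic enzymes and carriers, 4 were higher and 3 lower after RANKL. With uridine 3 were higher, among them the dicarboxylate carrier Slc25a10 (0.64) and the glutamate carrier Slc25a22 (0.39), and the 2-oxoglutarate carrier Slc25a11 was lower (-0.35).
Of 4 genes of lipoylation, the cofactor step that Ogdh and pyruvate dehydrogenase complexes share, 2 were higher after RANKL and Lipt2 was lower with uridine (-0.79). D2hgdh, which oxidises D-2-hydroxyglutarate, was lower with uridine (-0.38). The median log2 fold changes after RANKL were 0.50 for complex II, 0.53 for pyruvate entry, 0.99 for the kinases, 0.20 for glutamate and malate use and -0.06 for cytosolic enzymes and carriers. With uridine they were 0.02, -0.02, -0.38, -0.06 and 0.01, beside 0.00 over all genes tested.

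**Figure D4:**
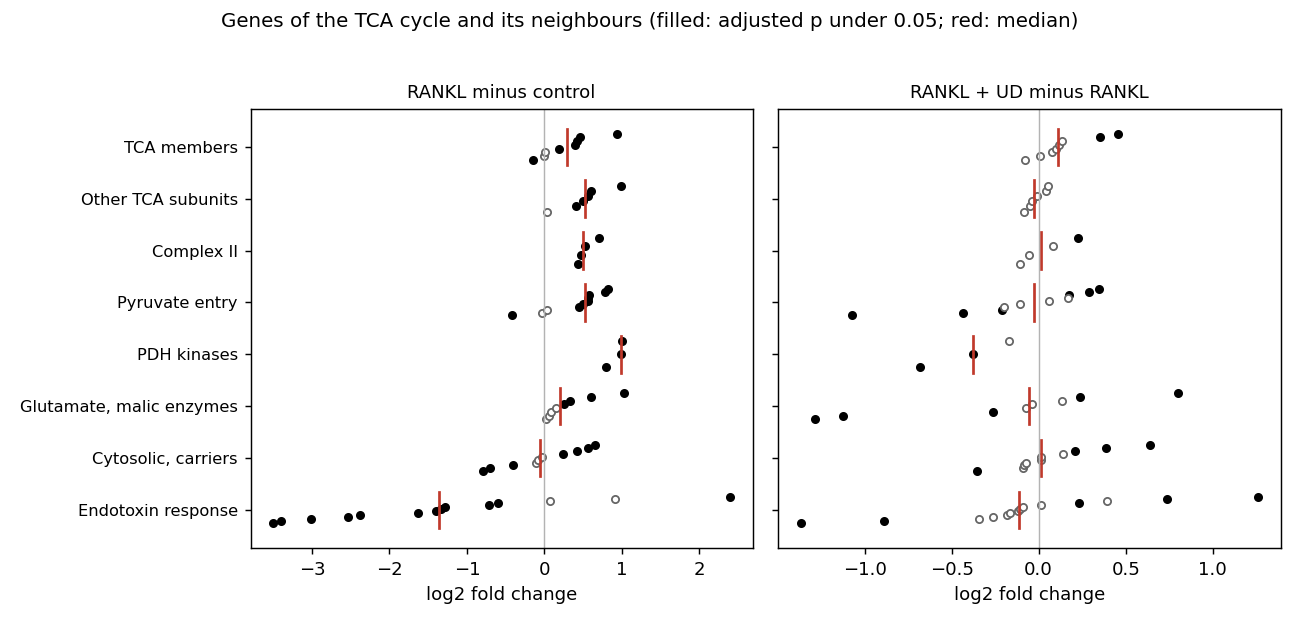
Log2 fold change (x axis) of single genes (points; filled where the adjusted p is under 0.05) in 8 gene lists, for RANKL minus control (left) and RANKL + UD minus RANKL (right, with another x scale), with each list's median in red. The medians of the TCA cycle genes are 0.29 and 0.11, and those of their partner subunits are 0.53 and -0.02.

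Acod1 is known as an endotoxin-induced gene. Of 14 other tested genes of the endotoxin response, 11 were lower and 1 was higher after RANKL. For comparison, 30.2% of all genes tested were called lower and 27.3% higher after RANKL, and 20.2% and 18.6% with uridine. Ptgs2, Socs3 and Cxcl2 had log2 fold changes of -3.50, -3.40 and -3.01. Nos2, inducible nitric oxide synthase, was at 0.45 to 0.52 FPKM in control and 2.19 to 2.79 in RANKL libraries. Ptgs2, Socs3, Il1b and Cxcl10, all among the 11, would not have been tested without the control libraries, where they are high. Nos2, the 1 called higher, would not have been tested without the RANKL libraries, where it is highest. The calls of these genes after RANKL thus carry no weight. With uridine, 3 were higher, among them Cxcl10 (1.26, edgeR adjusted p = 0.00155), and 2 were lower, Nos2 (-1.36) and Cxcl2 (-0.89). The fall of Nos2 carries no weight either, because Nos2 was tested only on account of its RANKL libraries. Of 4 tested genes listed for itaconate breakdown, transport and targets, the succinate receptor included, 3 were higher and 1 lower after RANKL. Abcg2 and Slc13a3 of the same list were too low to be tested. Rab32, which helps deliver itaconate to vacuoles that hold bacteria, was at 25.63 to 28.78 FPKM in control and 11.82 to 13.69 in RANKL libraries, and Clybl, citramalyl-CoA lyase, was higher (0.56). The succinate receptor Sucnr1 had 0, 1 and 0 counts in control libraries and 27 to 48 in RANKL libraries. It entered the test only through the libraries with RANKL, where it is high, so its place among the 3 carries no weight. With uridine, edgeR called 0 of these 4, and 0 had an unadjusted p under 0.05.

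The 9 genes were also compared with each other and with all genes tested by Pearson's r of log2 TMM-scaled CPM over the 9 libraries, as a description across 3 groups. Cs and Suclg1 were most alike (0.98), and Mdh2 and Acod1 were most opposed (-0.93). Ogdh was closest to Idh3a among the members (0.81) and unlike Acod1 (-0.15). The 5 genes most like Acod1 were Celf2, Zfp715, Lifr, Cep152 and Prps2, with r of 0.99. Lifr was at a mean FPKM of 1.23 in control, 0.0067 in RANKL and 0.053 in RANKL + UD. It was tested only on account of its control libraries, so its place among the 5 carries no weight. Prps2, a phosphoribosyl pyrophosphate synthetase, was at a mean FPKM of 26.9 in control, 14.3 in RANKL and 19.1 in RANKL + UD. The 5 most like Ogdh were Ube3c (0.99), Nudt19, Habp4, Asb1 and Cibar1 (0.97 each). Nudt19, a coenzyme A diphosphatase, was at 12.2, 12.4 and 20.0 in the same order.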

How the data were processed

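Libraries were poly(A)-selected and strand-specific per the labels, and were sequenced as paired-end reads. The table holds whole-number counts per gene, which the authors deposited without normalization, and FPKM values that the authors made from counts, exonic length and library total. Its columns call the RANKL libraries the model group. The submitters' processing notes name the build mm10, yet only 1435 of 52073 shared genes, and 0 of the 9 genes, had the coordinates of GENCODE M21 (GRCm38), so gene coordinates are the table's own and promoters are from GRCm38.p6. The aligner, counting tool and strand setting are not given in the sources used here. On the opposite strand, Fh1 overlaps Kmo, which was at most 1.81 FPKM. The Cs and Ogdh relatives Csl and Ogdhl had at most 2 counts.

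The 11995 genes that reached an FPKM of 1 in 3 or more libraries were tested with edgeR 4.0.16 in R 4.3.3 (TMM, 1 fit of all 9 libraries, adjusted p under 0.05). Alternatives were DESeq2 1.42.0, limma 3.58.1 on log2 values with pseudocounts of 1 and 0.1, other scalings and filters, only the 6 libraries of a comparison, a replicate block and each library left out. Ratios were computed in Python 3.11.15 with scipy 1.17.1. The tests were checked on simulated data. Replicates differed by more than sampling noise (chi-square per degree of freedom 2.90 to 8.89 over 9 pairs). Library batches were not given and were not tested. The named genes of each list are at most the 3 with the largest absolute log2 fold change per comparison, called and without overlap between libraries, plus ratio partners and the 5 genes most like Acod1 and most like Ogdh. Dlst and the rise of Nos2 after RANKL lie outside this rule and were chosen after their values were seen. Results of a few genes in the lists are not reported here. The members and lists were chosen with earlier results of these data known.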

Additional observations from a re-analysis of the deposited data

How the results depend on the processing

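Of the fold changes of the 9 genes, those of Acod1 in all 3 comparisons, of Ogdh and Idh3a between RANKL + UD and RANKL, and of Cs, Idh3a, Suclg1 and Mdh2 between RANKL and control kept direction and call in all 20 alternatives. So did those of Cs, Idh3a, Ogdh, Suclg1, Sucla2 and Mdh2 between RANKL + UD and control. With total counts in place of TMM, the median log2 fold change over all genes tested after RANKL went from -0.03 to -0.12, and calls went from 3278 higher and 3628 lower to 2579 and 4421. With limma on log2(TPM + 1), which changes both scaling and test, the median was -0.14 and 2183 genes were called higher; the cause was not tested.

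After RANKL, the number of the 9 genes called lower was 1 with RLE size factors, no filter, filterByExpr, DESeq2 or only the 6 libraries, and 1 to 2 with a library left out, the lost gene being Idh2. The median log2 fold change of the 9 genes (0.19) was 0.10 with total counts, 0.096 and 0.10 with limma on log2(FPKM + 1) and log2(FPKM + 0.1), 0.065 with TPM, and 0.15 to 0.22 with a library left out. With uridine against RANKL, total counts called 3350 genes higher, and limma called 1539, 1488 and 1366 lower (FPKM + 1, FPKM + 0.1, TPM; 2418 with edgeR). The 9 genes called higher numbered 7 with total counts, 6 and 6 with limma on FPKM, 7 with TPM, 5 with only the 6 libraries and 3 to 5 with a library left out; their median (0.12) was 0.21, 0.20, 0.21 and 0.22 in the first 4. Against control, genes called lower numbered 2 with only the 6 libraries and with the block, and 1 to 2 with a library left out, the second being Idh2; the median was 0.40 to 0.54 with a library left out.

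The sign changed only in differences that did not pass. Ogdh after RANKL was -0.078 with total counts, -0.070, -0.072 and -0.11 with limma (FPKM + 1, FPKM + 0.1, TPM) and -0.055 to 0.076 with a library left out. Fh1 after RANKL was 0.014 with RLE, 0.011 without filter, 0.0024 with filterByExpr, 0.014 with DESeq2, 0.017 with only the 6 libraries and -0.042 to 0.038 with a library left out. With uridine against RANKL, Idh2 was -0.0072 with RLE and with DESeq2 and -0.035 to 0.086 with a library left out, and Mdh2 was 0.0065 with total counts and 0.0066, 0.0067 and 0.023 with limma.

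Same-numbered libraries did not vary together (highest correlation of deviations 0.074), so the numbers were not taken as pairs. With the replicate block, Cs passed between RANKL + UD and RANKL (0.12, adjusted p = 0.0353), making 4 called genes, and Idh2 passed against control (-0.14, adjusted p = 0.0262); no other call of the 9 genes changed.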
